A study of Mus musculus with 6 samples.

Results

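The 37 genes described here belong to the ATF4 pathway and to amino acid supply in mouse Th17 cells: 9 regulators and other targets of ATF4, 12 enzymes of amino acid synthesis and exchange, and 16 amino acid transporters. They were listed by name for their known roles, with earlier results of these data known, and each symbol matched 1 identifier among the 39179 genes of the count files. All 37 passed the filter on low counts, which left 13846 genes in the test, and 7 of the 37 had a mean under 1 CPM (read counts scaled to a common library size). The comparison was between 3 libraries from Th17 cultures with desIgf1, a shortened insulin-like growth factor 1, and 3 libraries from control cultures without it, to see how this growth factor alters what Th17 cells express. The filter asked for about 10 counts, scaled for depth, in at least 3 libraries. Slc1a1 met it only through the 3 controls. Nupr1, Chac1 and Slc6a9 met it in the 3 desIgf1 libraries but not in all 3 controls. Their place among the tested genes thus rests on the group where they were higher.

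Both groups started from naive CD4+ T cells of C57BL/6 mice that carried 3 reporters, namely IL17a/hCD2, Ifng/Thy1.1 and Foxp3/GFP; the labels give spleen as the tissue and state no age. Cells of both groups grew for 5 days with soluble anti-CD3 at 5 µg/mL, CD4-depleted irradiated splenocytes, IL6 at 20 ng/mL, TgfB at 2.5 ng/mL, and antibodies to Ifng and IL4 at 10 µg/mL each. The desIgf1 cultures also had desIgf1 at 30 ng/mL. Cells positive for hCD2 and negative for Thy1.1 and GFP were sorted, so the RNA came from cells that had switched on the Il17a reporter in culture. The treatment text lists desIgf1 for all 6 libraries, whereas the titles and the series design separate the groups, and the groups here follow the titles.

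ATF4 is a transcription factor whose protein is made more efficiently when translation initiation is dampened, as happens when the kinase GCN2 (Eif2ak4) senses uncharged tRNA. It switches on genes for amino acid synthesis, amino acid uptake and tRNA charging, and it also induces feedback and stress genes such as Trib3, Chac1 and Ddit3. Activated T cells depend on amino acid uptake, above all on the transporters encoded by Slc7a5 with Slc3a2 and by Slc1a5, and growth factor signals through mTORC1 can raise ATF4 as well.

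Many ATF4 targets carry a C/EBP-ATF response element, the composite DNA site bound by ATF4 with a C/EBP partner, and the stretches around it are shown because they mark the members that carry this site beside their start. The letters TGATGNAAN were searched on both strands in RefSeq promoter windows of the GRCm38.p6 build, from 250 bases before to 50 bases after each start. Windows were at hand for 32 of the 37 genes (Cth, Slc1a5, Slc38a1, Slc7a3 and Slc7a5 had no entry). A match was found in 9 of these 32 genes (28.1%) and in 1215 of all 27025 genes with windows (4.50%). Among tested genes with a window, 271 had a match and 9680 had none. The list was chosen in part for known ATF4 targets, so its higher share is no separate support. By role, it was in 4 of 9 regulators and targets (Nupr1, Chac1, Vldlr and Trib3), 3 of 11 enzymes (Asns, Pycr1 and Got1) and 2 of 12 transporters (Slc1a4 and Slc7a7). The matches are in capitals, read 5′ to 3′ along the strand of the gene, with 15 bases on each side.
Nupr1 (chr7:126625558-126625596, minus strand, 111 bases before the start): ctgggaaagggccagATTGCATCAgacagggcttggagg
Chac1 (chr2:119351033-119351071, plus strand, 194 bases before the start): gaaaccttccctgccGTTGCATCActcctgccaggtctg
Vldlr (chr19:27216804-27216842, plus strand, 201 bases before the start of the second of its 2 windows): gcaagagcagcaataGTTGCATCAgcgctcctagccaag
Trib3 (chr2:152344024-152344062, minus strand, 13 bases after the start): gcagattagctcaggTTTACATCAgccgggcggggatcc
Asns (chr6:7693209-7693247, minus strand, 23 bases before the start): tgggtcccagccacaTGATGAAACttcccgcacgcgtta
Pycr1 (chr11:120643828-120643866, minus strand, 103 bases before the start): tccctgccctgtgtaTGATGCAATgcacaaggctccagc
Got1 (chr19:43524685-43524723, minus strand, 103 bases before the start): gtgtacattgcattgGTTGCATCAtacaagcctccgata
Slc1a4 (chr11:20332695-20332733, minus strand, 5 bases before the start): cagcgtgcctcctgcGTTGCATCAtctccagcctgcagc
Asns and Pycr1 hold the site in the forward orientation of the gene, and the other 6 genes printed hold its reverse complement. Such a match is a description of the letters, not evidence of binding.

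The libraries held 34567899 to 47929948 counts in genes. Library numbers 1 to 3 recur in both groups, and same-numbered libraries deviated from their group means together (correlations across genes of 0.60, 0.32 and 0.56), so values with the replicate number as a block stand beside the main ones where they matter. Both number 3 libraries stood apart from the others in some T cell genes: Ccr6, a chemokine receptor of Th17 cells, was at 153 and 148 CPM in them and at 12.1 to 46.2 CPM in the other 4. The 6 CD4 T cell markers summed to 4914 to 5408 CPM with desIgf1 and 4738 to 5014 CPM in controls. The 6 Th17 markers summed to 1421 to 1777 and 1035 to 1221 CPM (exact permutation test, two-sided, p = 0.1, the smallest p that 3 against 3 allows). B cell markers summed to 1.23 to 3.81 CPM over all 6 libraries, those of dendritic cells to 0.745 to 3.31 CPM with Xcr1, Siglech and Cd209a at 0, those of macrophages to 4.18 to 14.7 CPM, those of neutrophils to 0 to 0.716 CPM with Elane at 0, those of CD8 T and NK cells to 6.53 to 18.3 CPM with Ncr1 at 0, and those of erythroid cells to 0.227 to 0.427 CPM with Hbb-bt at 0. In these bulk samples fewer cells of a type and less RNA per cell cannot be told apart. Nothing in the labels states that each library had its own animal or culture, and the p-values cover only the variation among the 6 libraries, which may be technical.

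None of the 37 genes passed an adjusted p of 0.05 in edgeR's quasi-likelihood test with Benjamini-Hochberg adjustment over all tested genes, where 0% of all tested genes passed. With the replicate number as a block, again none of the 37 passed, against 0.318% of all tested genes. DESeq2 called 2 of the 37, Slc1a1 and Slc16a10, both lower with desIgf1, against 1.46% of all tested genes in either direction and 0.657% in that direction (0.802% were called higher). At an unadjusted p under 0.05 the edgeR test held 4 of the 37 genes (10.8%), beside 8.16% of all genes: 2 higher (Nupr1 and Chac1), beside 4.75%, and 2 lower (Slc1a1 and Slc16a10), beside 3.42%. With the block it held 10 (27.0%), beside 14.3%: 6 higher, beside 9.02%, and 4 lower, beside 5.29%. The 3 desIgf1 libraries lay all above or all below the 3 controls in 9 genes (24.3%), beside 13.5% of all genes. Of these, 5 were higher (Eif2ak4, Nupr1, Chac1, Slc7a3 and Slc36a4), beside 7.31%, and 4 were lower (Cth, Slc1a5, Slc1a1 and Slc16a10), beside 6.18%. Within the same-numbered pairs, 17 genes (45.9%) pointed one way in all 3, beside 38.0% of all genes; 10 of them were higher with desIgf1, beside 20.7%, and 7 were lower, beside 17.3%.

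The log2 fold changes of the 37 genes ran from -3.41 for Slc1a1 to 1.89 for Nupr1, with a median of -0.04 beside -0.01 over all tested genes. They were above 0 in 16 genes and below 0 in 21, and in 26 genes the size was under 0.5. The median was 0.25 for regulators and targets, -0.10 for enzymes and -0.07 for transporters. Without control 2 the enzyme median was 0.06 and that of all 37 genes 0.06, both above 0. These medians are descriptions of chosen lists and were not tested.

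**Figure D1:**
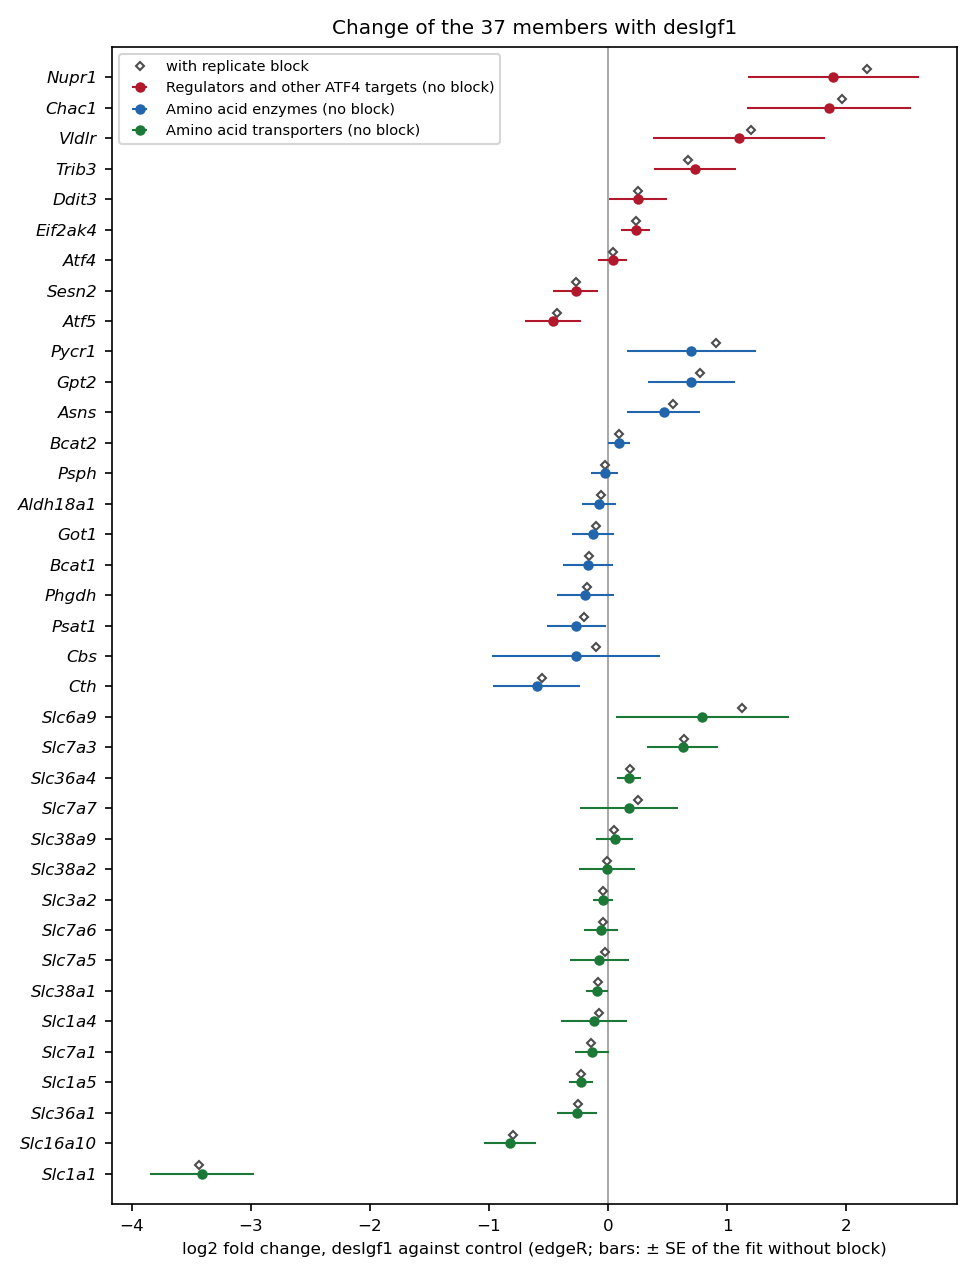
log2 fold change of each of the 37 genes with desIgf1 against control, on the horizontal axis, from edgeR without block (filled points, bars ± SE, 3 libraries a group) and with the replicate number as a block (open diamonds), coloured by role. Nupr1, Chac1 and Vldlr lie farthest to the right and Slc1a1 lies alone at -3.41 on the left.

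Compared per length of exon, the 37 genes spanned a wide range of levels. The length merges all annotated exons of a gene, 4173 bases for Slc1a5 and 2358 for Atf4, so the order of close values depends on that choice. Slc1a5, the neutral amino acid transporter that carries glutamine, was the highest at 114 CPM per kb over all 6 libraries, and Atf4 followed at 103 CPM per kb. Slc3a2, the heavy chain shared by several transporters, was at 39.5 CPM per kb, Slc7a6 at 29.1, the proline synthesis enzyme gene Aldh18a1 at 28.3, and Slc7a5 at 26.0. At the other end were Slc1a1 at 0.0603 and Cbs, the first enzyme of transsulfuration, at 0.0311 CPM per kb. The genes with the largest changes on the log2 scale, Slc1a1, Nupr1 and Chac1, were therefore among the 6 lowest-expressed of the 37.

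**Figure D2:**
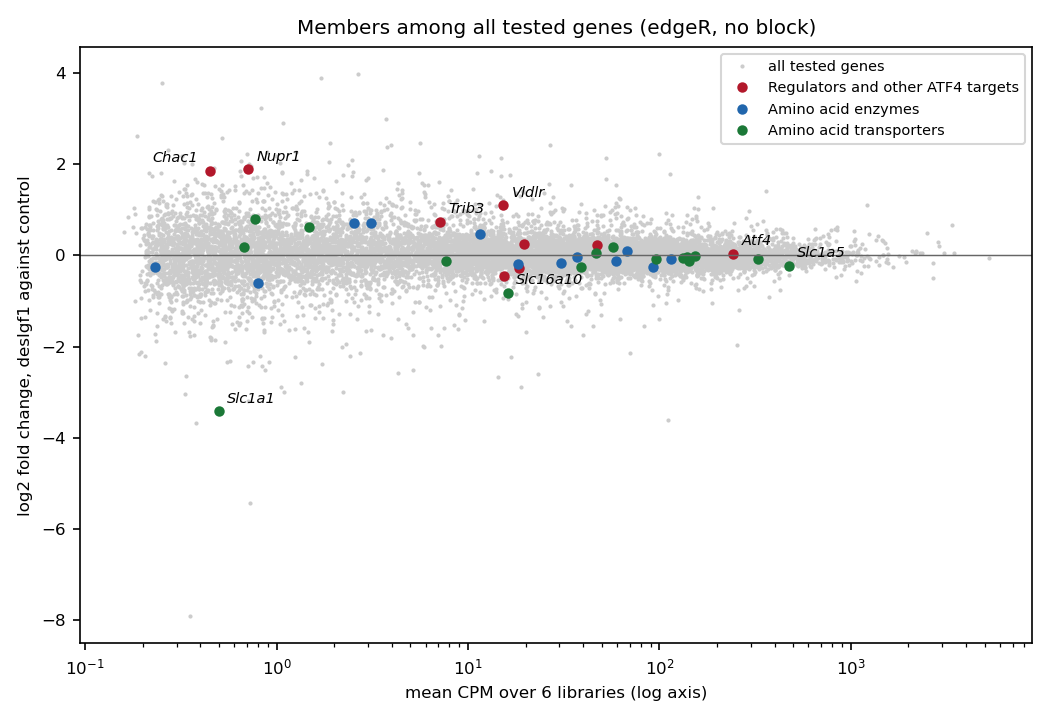
log2 fold change with desIgf1 against control (vertical axis, edgeR without block) against mean CPM over the 6 libraries (log axis), for all 13846 tested genes in grey and the 37 genes in colour by role. Most of the coloured points lie inside the grey cloud, with Slc1a1 below it at a mean under 1 CPM.

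Among the regulators, Atf4 itself was at nearly the same RNA level in both groups. Atf4 (chr15:80255184-80257541) stood at 232, 268 and 237 CPM in desIgf1 libraries 1, 2 and 3 and at 231, 274 and 213 CPM in control libraries 1, 2 and 3, which is 246 ± 19.5 and 239 ± 31.4 CPM (SD, n = 3 each). The groups overlapped and number 2 was highest in both. The edgeR log2 fold change was 0.04 ± 0.12 (SE), with an adjusted p of 0.940, and the value was -0.04 without control 3. ATF4 is controlled largely at translation, which these RNA counts do not measure.

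Eif2ak4, the kinase that senses amino acid shortage, was higher in every desIgf1 library than in any control, by a small margin. Its values were 47.3, 55.8 and 49.97 CPM with desIgf1 and 38.1, 46.2 and 45.8 CPM in controls. The log2 fold change was 0.23 ± 0.12, with an adjusted p of 0.634 from edgeR and 0.347 with the block. Atf5, a relative of ATF4 that shares its translational control, pointed the other way, with 14.995, 13.2 and 10.8 CPM against 23.9, 16.0 and 13.7 CPM. Each pair of same-numbered libraries had less Atf5 with desIgf1, while the groups as a whole overlapped, and the log2 fold change was -0.46 ± 0.24 (edgeR adjusted p of 0.633, and 0.267 with the block). Il4i1 and Nup62 overlap Atf5 on the opposite strand.

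The 3 highest log2 fold changes among the 37 genes were those of the ATF4 targets Nupr1, Chac1 and Vldlr, and none passed. Nupr1, a small stress-induced chromatin protein, was at 1.177, 1.07 and 1.14 CPM with desIgf1, against 0.153, 0.680 and 0.0573 CPM in controls. All desIgf1 libraries were above all controls, and control 2 was nearest to them. These levels rest on 47, 45 and 55 counts against 7, 29 and 2 counts, a ratio of the depth-scaled sums of 3.65 (exact 95% interval 2.54 to 5.37, counting error only). The log2 fold change was 1.89 ± 0.71, with an edgeR adjusted p of 0.566, and 2.18 ± 0.67 with an adjusted p of 0.249 with the block. Without control 2 the log2 fold change was 3.34, and the blocked fit without number 2 gave an adjusted p of 0.00278.

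Chac1, which breaks down glutathione and is a sensitive ATF4 target, showed the same separation at an even lower level. Its values were 0.726, 0.855 and 0.537 CPM with desIgf1 and 0.0219, 0.281 and 0.286 CPM in controls, from 29, 36 and 26 counts against 1, 12 and 10 counts. The groups did not overlap, and control 1 was far below the other controls. The ratio of sums was 3.74 (exact 95% interval 2.34 to 6.19) and the log2 fold change was 1.86 ± 0.69 (edgeR adjusted p of 0.560, and 0.284 with the block).

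Vldlr, the very low density lipoprotein receptor, which ATF4 is known to induce, varied more between library numbers than between groups. Vldlr (chr19:27216484-27254231) was at 17.3, 36.9 and 8.496 CPM with desIgf1, against 6.03, 19.4 and 3.78 CPM in controls. Number 2 was highest and number 3 lowest in both groups, so the groups overlapped, yet each desIgf1 library exceeded its same-numbered control by 1.52, 0.93 and 1.15 on the log2 scale. Without the block the log2 fold change was 1.10 ± 0.72 with an edgeR adjusted p of 0.680, and it was 0.39 without desIgf1 library 2 and 2.09 without control 2. With the block it was 1.203 ± 0.16 with an adjusted p of 0.0577, just short of the threshold. The blocked adjusted p from edgeR was 0.124, 0.000679 and 0.00431 without numbers 1, 2 and 3. Summed macrophage markers were also lowest in number 3 in both groups, at 13.6, 14.7 and 10.0 CPM with desIgf1 and 12.5, 11.96 and 4.18 CPM in controls, and their part in the Vldlr values was not tested.

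Trib3, a pseudokinase that feeds back on ATF4, followed the same direction in each pair. It was at 9.01, 12.6 and 5.06 CPM with desIgf1, against 4.91, 6.69 and 4.41 CPM in controls, with number 3 lowest in both groups. Its log2 fold change was 0.73 ± 0.35 (edgeR adjusted p of 0.625, and 0.249 with the block). Ddit3, which encodes the stress factor CHOP, was at 26.9, 21.3 and 16.1 CPM with desIgf1 and 22.5, 13.8 and 17.6 CPM in controls. The groups overlapped and pair 3 pointed down, and the log2 fold change was 0.25 ± 0.24 (edgeR adjusted p of 0.772). Ddit3 overlaps Mars on the opposite strand, and for it, as for Atf5, whether the counting used strand is not given in the sources used here. Sesn2, which passes leucine shortage on to mTORC1, was at 15.03 to 20.1 CPM with desIgf1 and 17.9 to 24.7 CPM in controls, at a log2 fold change of -0.27 ± 0.19. Together, 5 of the 9 regulators and targets were higher with desIgf1 in all 3 pairs, beside 20.7% of all tested genes. The other direction held in all 3 pairs for 2 of the 9, beside 17.3%. Of the 5, Nupr1 and Chac1 had a mean under 1 CPM and passed the filter only with the desIgf1 libraries. This count of a chosen list was not tested.

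**Figure D3:**
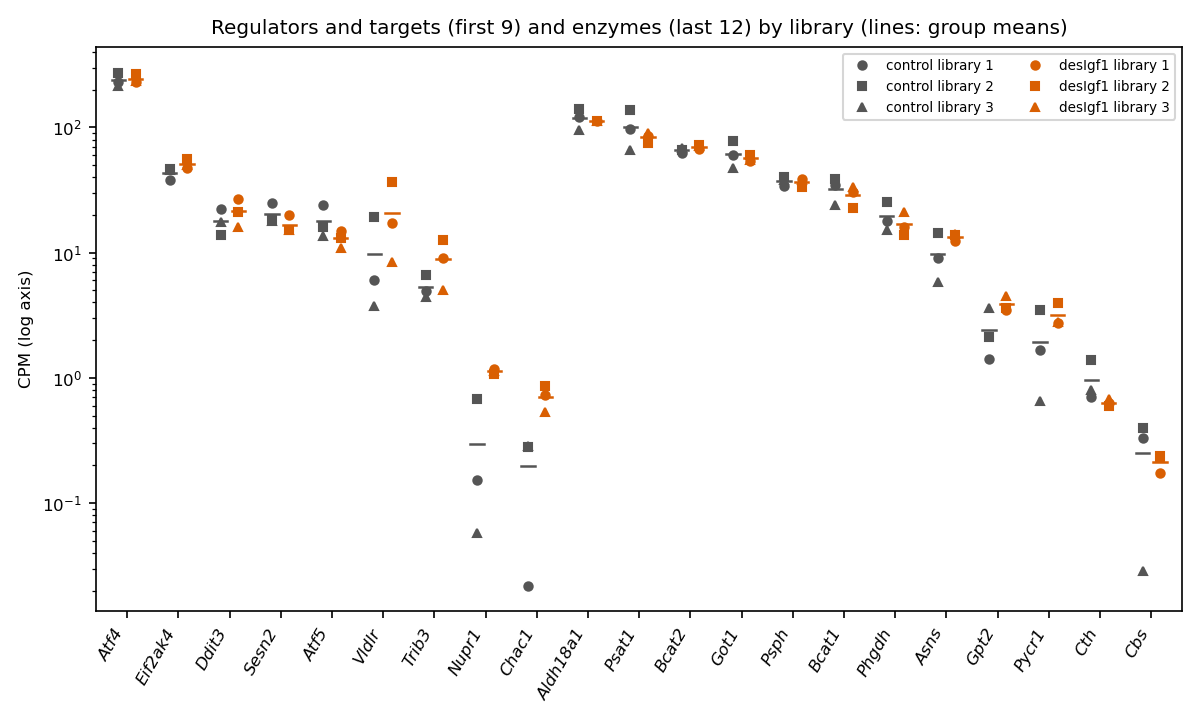
CPM (log axis) of the 9 regulators and targets (first on the horizontal axis) and the 12 enzymes in each of the 6 libraries, control in grey and desIgf1 in orange, with the library number as marker shape and lines at group means. The Nupr1 and Chac1 points do not overlap between groups, and the control points of most enzymes spread more widely than the desIgf1 points.

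The enzymes lay on both sides of 0, with 4 of 12 log2 fold changes above it. Asns, asparagine synthetase, the best known ATF4 target among them, was at 12.4, 13.9 and 14.0 CPM with desIgf1, against 9.14, 14.2 and 5.78 CPM in controls. The desIgf1 libraries sat within a narrow band, and the controls spread from well below it to just above it. The log2 fold change was 0.47 ± 0.31 with an edgeR adjusted p of 0.678. Pycr1, which makes proline in mitochondria, was at 2.73, 3.94 and 2.79 CPM against 1.67, 3.47 and 0.659 CPM, higher in each of the 3 pairs. Its log2 fold change was 0.70 ± 0.54 (edgeR adjusted p of 0.713). With 1 library left out it ran from 0.30 to 1.43, the latter without control 2. Gpt2, the mitochondrial alanine transaminase, was at 3.505, 3.59 and 4.51 CPM against 1.43, 2.13 and 3.61 CPM. Gpt2 was also higher in each of the 3 pairs and was the only enzyme with an unadjusted p under 0.05 with the block, at a log2 fold change of 0.78 ± 0.26 and an edgeR adjusted p of 0.282.

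Genes of serine synthesis lay slightly below 0. The log2 fold changes were -0.19 ± 0.24 for Phgdh, -0.27 ± 0.25 for Psat1 and -0.03 ± 0.11 for Psph, which encode the successive enzymes of that route. Psat1 was at 84.9, 75.7 and 90.4 CPM with desIgf1, against 97.4, 139 and 65.6 CPM in controls. Control 2 was thus the highest of all 6 libraries and control 3 the lowest. Cth, the second enzyme of transsulfuration, was at 0.626, 0.594 and 0.682 CPM against 0.702, 1.38 and 0.802 CPM. Its groups did not overlap, and control 2 accounted for most of the distance. The log2 fold change was -0.60 ± 0.37, with an edgeR adjusted p of 0.661. The other 5 enzymes were Aldh18a1, Got1, Bcat1, Bcat2 and Cbs, and their log2 fold changes ran from -0.27 for Cbs, which had 61 counts over all libraries, to 0.10 for Bcat2.

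The enzymes differed more among the controls than among the desIgf1 libraries. In all 12 the SD over the desIgf1 libraries was below the SD over the controls, beside 59.9% of all tested genes. The same held in 13 of the 16 transporters and in 5 of the 9 regulators and targets. For Aldh18a1 the values were 112 ± 0.262 CPM with desIgf1 and 118 ± 22.2 CPM in controls (SD, n = 3). Control 2 was the highest and control 3 the lowest of the controls in 8 of the 12 enzymes, beside 25.1% of all tested genes. It was so in 4 of the 9 regulators and targets and in 5 of the 16 transporters. The median difference of the enzymes within pairs was therefore -0.12 and -0.33 on the log2 scale for numbers 1 and 2 and 0.39 for number 3. This pattern was noticed in the values and was not tested. Among the markers, the 5 Treg and Th1 genes summed to 1141, 1576 and 385 CPM in controls 1, 2 and 3 and to 921, 756 and 618 CPM with desIgf1. Nearly all of this was Il2ra, which activated T cells also express, and Foxp3 was at 0.237 to 1.80 CPM, and the part of these markers in the enzyme values was not tested.

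**Figure D4:**
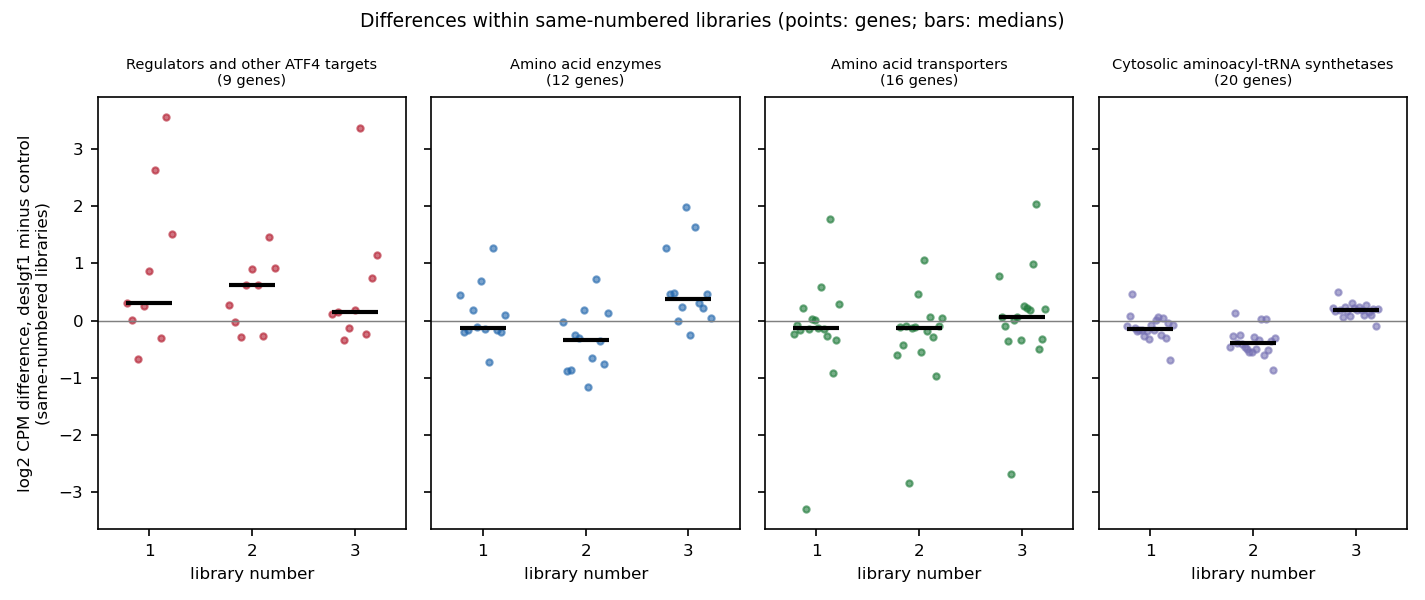
Difference in log2 CPM, desIgf1 minus control, within each pair of same-numbered libraries, for the 3 roles and for the 20 cytosolic aminoacyl-tRNA synthetases (points are genes, spread sideways for visibility, and bars are medians). The enzyme medians are -0.12, -0.33 and 0.39 for numbers 1, 2 and 3, and the synthetase points of number 2 lie mostly below 0 and those of number 3 mostly above.

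The main amino acid carriers of activated T cells were present at high levels in both groups. Slc7a5, the light chain of the leucine transporter LAT1, was at 86.3, 86.0 and 110 CPM with desIgf1, against 102, 131 and 63.7 CPM in controls. The groups overlapped completely and the pairs disagreed, with differences of -0.24, -0.61 and 0.78 on the log2 scale, so the log2 fold change of -0.07 ± 0.25 (edgeR adjusted p of 0.947) averages over opposite signs. It was 0.18 without control 2. Slc3a2, its partner chain, was the steadier of this pair of genes at 132, 137 and 142 CPM with desIgf1 and 139, 148 and 137 CPM in controls, a log2 fold change of -0.04 ± 0.09 (edgeR adjusted p of 0.909).

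Slc1a5 (chr7:16781340-16798274), the most abundant of the 37 genes per merged exon length, was lower in all desIgf1 libraries than in any control. Its values were 461, 390 and 463 CPM with desIgf1 and 519, 521 and 497 CPM in controls, or 438 ± 41.6 and 512 ± 13.5 CPM (SD, n = 3). The difference was small and missed the threshold, with a log2 fold change of -0.23 ± 0.10 (edgeR adjusted p of 0.619, and 0.375 with the block).

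Slc1a1 and Slc16a10 had the largest differences among the transporters, both lower with desIgf1. Slc1a1 (ENSMUSG00000024935, chr19:28835049-28913960) encodes a high-affinity carrier of glutamate, aspartate and cysteine. It was at 0.0501, 0.0712 and 0.124 CPM with desIgf1, against 0.943, 0.798 and 1.002 CPM in controls. That is 2, 3 and 6 counts against 43, 34 and 35 counts, so every control was far above every desIgf1 library. The gene passed the filter on low counts through the controls alone. From sums of 11 and 112 counts, scaled for depth, Slc1a1 was 10.8-fold lower with desIgf1 (exact 95% interval 5.80 to 22.2, counting error only). The log2 fold change was -3.41 ± 0.43 and ranked number 7 of 13846 genes by p, with an edgeR adjusted p of 0.112, and -3.44 ± 0.44 with an adjusted p of 0.0512 with the block. DESeq2 gave -3.46 with an adjusted p of 0.000175. The call therefore depends on the test, and also on the libraries, since the blocked edgeR adjusted p was 0.0694, 0.00394 and 0.00421 without numbers 1, 2 and 3. The genes 4430402I18Rik and Gm5822 overlap Slc1a1 on the opposite strand. They had 1, 7 and 6 counts and 70, 98 and 65 counts with desIgf1, and 4, 0 and 15 counts and 67, 61 and 38 counts in controls.

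Slc16a10 (ENSMUSG00000019838, chr10:40033532-40142258), which carries aromatic amino acids, was at 13.2, 11.3 and 10.5 CPM with desIgf1, against 25.0, 22.1 and 14.8 CPM in controls. The groups did not overlap, with 11.7 ± 1.37 and 20.6 ± 5.24 CPM (SD, n = 3), and control 3 was the nearest to the desIgf1 libraries. The log2 fold change was -0.82 ± 0.22 (edgeR adjusted p of 0.406, and 0.117 with the block), and DESeq2 gave an adjusted p of 0.0328. Without numbers 1, 2 and 3 the blocked edgeR adjusted p was 0.610, 0.0238 and 0.00648. Its counts were far above those of Slc1a1 in every library.

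Slc36a1 and Slc36a4, carriers of the proton-coupled amino acid transporter family, pointed in opposite directions. Slc36a1 was at 40.5, 33.7 and 31.6 CPM with desIgf1 and 51.4, 36.1 and 39.3 CPM in controls, lower in each pair, with a log2 fold change of -0.26 ± 0.17 (edgeR adjusted p of 0.671). Slc36a4 was at 61.5, 61.1 and 60.4 CPM against 50.3, 59.3 and 52.1 CPM, with no overlap and a log2 fold change of 0.18 ± 0.10 (edgeR adjusted p of 0.649). Slc7a3, a carrier of cationic amino acids, was at 1.95, 1.85 and 1.57 CPM against 1.29, 0.868 and 1.32 CPM, again without overlap, at 0.63 ± 0.30 (edgeR adjusted p of 0.625).

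The remaining 8 transporters overlapped between groups. Slc38a1, Slc38a2, Slc38a9, Slc7a1, Slc7a6, Slc7a7 and Slc1a4 had log2 fold changes from -0.13 for Slc7a1 to 0.18 for Slc7a7. Slc38a2, the neutral carrier that amino acid shortage induces, was at 117 to 194 CPM with desIgf1 and 112 to 190 CPM in controls, at -0.01 ± 0.24. Slc6a9, the glycine carrier, was at 1.30, 0.997 and 0.662 CPM against 0.351, 1.22 and 0.115 CPM, where pairs 1 and 3 rather than pair 2 set its log2 fold change of 0.79 ± 0.73.

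**Figure D5:**
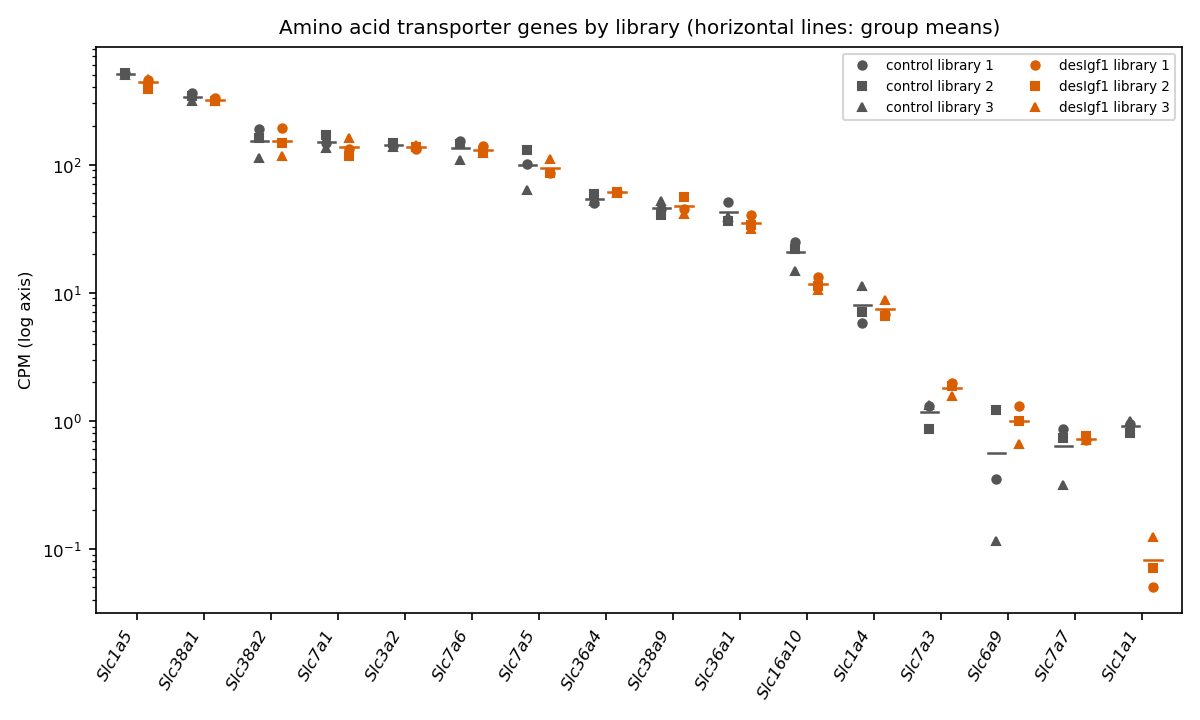
CPM (log axis) of the 16 transporter genes in each of the 6 libraries, ordered by level, control in grey and desIgf1 in orange, with the library number as marker shape and lines at group means. The Slc1a1 points are separated by a wide gap, the Slc16a10 points by a narrow one, and the Slc7a5 points overlap.

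The response element was also set beside the fold changes. Of the 9 with a match, 7 had a log2 fold change above 0 and the median was 0.70, with Got1 and Slc1a4 below 0. Of the 23 with a window and no match, 8 were above 0 and the median was -0.06. The groups did not overlap in 2 of the 9 and in 4 of the 23, beside 13.5% of all tested genes. Among the 9, Nupr1, Chac1 and Slc7a7 had a mean under 1 CPM. Over all tested genes with a window the medians were -0.00 for 271 genes with a match and -0.01 for 9680 without, near 0 in both. This split of the members is a description of few genes and was not tested.

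Other genes of these pathways, taken from lists of known members, also held no call in either edgeR fit. Among 27 tested genes of the integrated stress response, the median log2 fold change was 0.09 and 9 (33.3%; 6 higher and 3 lower with desIgf1) did not overlap between groups, beside 13.5% of all tested genes. Eif2ak2, the kinase that senses double-stranded RNA, was at 33.1 ± 0.077 CPM with desIgf1 and 27.7 ± 1.63 CPM in controls (SD, n = 3; edgeR adjusted p of 0.598). Gcn1, the activator of GCN2, was at 181 ± 12.3 and 221 ± 12.3 CPM (edgeR adjusted p of 0.505). Eif2ak4 and the gene of its activator thus pointed in opposite directions, though neither passed. The 20 cytosolic aminoacyl-tRNA synthetases, which charge tRNA and are ATF4 targets in part, had a median of -0.12 with 17 below 0, and the median was 0.05 in the blocked fit without number 2. In 18 of the 20, control 2 was the highest and control 3 the lowest control, as in 8 of the 12 enzymes. That order also held in 14 of the 27 stress response genes and 10 of 16 genes of endoplasmic reticulum stress. It held in 7 of 22 further enzymes, 2 of 19 further transporters and 8 of 29 genes of amino acid sensing by mTORC1. Wars, the tryptophan synthetase, was the only one of the 20 without overlap (5.00%, beside 13.5% of all tested genes), at 88.9, 75.2 and 99.2 CPM against 144, 137 and 106 CPM and a log2 fold change of -0.55 ± 0.15 (edgeR adjusted p of 0.451). Tars, the threonine synthetase, had a log2 fold change of -0.23 ± 0.12.

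Among 22 tested further enzymes of amino acid metabolism the median was -0.14. Of these, 1 gene did not overlap (4.55%, beside 13.5% of all tested genes), namely Prodh, the first enzyme of proline breakdown, named after its values were seen: it was at 0.250, 0.475 and 0.765 CPM with desIgf1 and 0.833, 0.891 and 0.830 CPM in controls. Shmt1, cytosolic serine hydroxymethyltransferase, was at 26.9, 16.4 and 33.8 CPM against 49.4, 62.6 and 31.5 CPM (log2 fold change of -0.90 ± 0.32, edgeR adjusted p of 0.533). Of 19 tested further transporters, Slc43a1, a carrier of large neutral amino acids, had the lowest log2 fold change. It was at 0.526, 0.166 and 0.310 CPM with desIgf1, against 2.70, 1.97 and 2.35 CPM in controls, a log2 fold change of -2.80 ± 0.44 (edgeR adjusted p of 0.172, and 0.0512 with the block). Like Slc1a1 it was called by DESeq2, with an adjusted p of 2.87e-06. Slc7a2, a cationic carrier, was at 1.25, 1.76 and 0.662 CPM against 0.438, 0.493 and 0.372 CPM, a log2 fold change of 1.48 ± 0.43 (edgeR adjusted p of 0.463).

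The 29 genes by which mTORC1 senses amino acids had a median of -0.03. Castor1, the arginine sensor, was at 52.2, 80.0 and 52.1 CPM with desIgf1, against 32.4, 30.9 and 35.9 CPM in controls, a log2 fold change of 0.89 ± 0.18 (edgeR adjusted p of 0.316, and 0.142 with the block), and DESeq2 called it at an adjusted p of 0.00316. Fnip2, a folliculin partner, was at 3.51 ± 0.531 and 5.61 ± 1.54 CPM (edgeR adjusted p of 0.603). The 16 genes of endoplasmic reticulum stress had a median of -0.03. Edem1, which helps to clear misfolded glycoproteins, was at 427, 449 and 386 CPM against 321, 308 and 297 CPM (log2 fold change of 0.45 ± 0.10, edgeR adjusted p of 0.328), and DESeq2 called it at 0.00880. Dnajb9, an endoplasmic reticulum chaperone, had a log2 fold change of 0.45 ± 0.19 (edgeR adjusted p of 0.608).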

How the data were processed

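The 6 libraries (3 a group, from TruSeq stranded mRNA preparation per the labels' protocols) were deposited by the authors as whole-number read counts per gene, not normalized. The submitters' processing notes name HTSeq 0.7.2, STAR 2.5.3, Trim Galore 0.4.5, SAMtools 0.1.18, R 3.4.3, DESeq2 1.18.1 and build GRCm38 (mm10). Roles, annotation release and strand setting are not given in the sources used, which leaves overlapping and antisense genes uncertain. The summary lines of each file stayed out of library sizes and tests. Reads overlapping no gene were 13.5 to 15.7% and ambiguous reads 0.712 to 0.761% of uniquely placed ones. Alignments that were not unique were 46.4 to 48.7% of the total of these and the uniquely placed reads, and they were not counted in genes. Coordinates, symbols and exon lengths came from GENCODE M21 (GRCm38), which held 37607 of the 39179 identifiers.

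The test was that of edgeR 4.0.16 under R 4.3.3 (TMM, filterByExpr with minimum count 10, robust quasi-likelihood fit, group as the only term, Benjamini-Hochberg over all tested genes, threshold 0.05). CPM use TMM-scaled totals, and log2 CPM add a prior count of 2. DESeq2 1.42.0, limma 3.58.1 (voom), other scalings, no filter and left-out libraries were alternatives. The script was tested on simulated data with known changes. There, no share of changes recovered was required of the fit without the block when pairs differed. Same-numbered libraries correlated in their deviations at 0.60, 0.32 and 0.56, and other combinations at -0.49 to 0.05. The numbers were therefore taken to pair the libraries, though no label says so. Deviations from a group mean cancel out within the group, so the lower values of the other combinations are not separate support. The block was thus chosen from the same data that it is applied to. The block leaves 2 residual degrees of freedom against 4. No libraries were copies (chi-square per degree of freedom 40.2 to 129 within groups). The 37 genes and all lists were chosen with earlier results of these data known. Named genes were 6 fixed ones, those with an unadjusted p under 0.05 in either edgeR fit, those without overlap between groups, the largest change per role at 1 CPM or more, and the 2 smallest p per other list. Other genes are given by range, and some genes that this rule or the marker lists hold are not reported here.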

Additional observations from a re-analysis of the deposited data

How the results depend on the processing

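Of 13846 tested genes, 0 passed in edgeR without the block (1130 at an unadjusted p under 0.05) and under limma voom. The replicate block gave 44 (0.318%), DESeq2 gave 202 (1.46%), and leaving out the filter on low counts gave 16 of 22504. DESeq2 plus the replicate block, an alternative chosen after seeing the data, gave 606 of 13846. With the replicate block and 1 number left out, 72 of 14024, 620 of 14019 and 1069 of 13987 genes passed without numbers 1, 2 and 3. Of the 37 genes, 0 passed in edgeR with the replicate block, 2 with DESeq2, 1 without the filter (Slc1a1, adjusted p of 0.0441) and 4 with DESeq2 plus the block (Nupr1 at 0.0329, Vldlr at 2.91e-07, Slc1a1 at 0.000761 and Slc16a10 at 0.00103). In the replicate block without one number, 0 to 6 passed: 6 without number 2 (Vldlr at 0.000679, Nupr1 at 0.00278, Slc1a1 at 0.00394, Slc16a10 at 0.0238, Asns at 0.0410, Slc6a9 at 0.0430) and 5 without number 3 (Slc1a1 at 0.00421, Vldlr at 0.00431, Slc16a10 at 0.00648, Trib3 at 0.0211, Chac1 at 0.0415). Those fits keep 2 libraries a group, and the cause was not tested. Without the block, leaving out any single library left 0 of the 37 called. Leaving out 1 library gave Atf4 log2 fold changes from -0.0387 (without control 3; -0.0342 without desIgf1 2) to 0.147, and -0.0103 in the replicate block without number 3. For Slc7a5 the range was -0.307 to 0.184 (without control 2), and the replicate block gave 0.0874 without number 1 and 0.272 without number 2. With 1 library left out, the median ran from -0.134 to 0.0563 for the 37 genes, -0.248 to 0.0626 for enzymes (both positive without control 2), -0.169 to -0.0166 for transporters and -0.211 to -0.0124 for synthetases; the replicate block without number 2 gave 0.0816, 0.132, 0.00919 and 0.0497. The medians of the other transporters (-0.115 to 0.00396) and of endoplasmic reticulum stress genes (-0.142 to 0.0465) also spanned 0. The stress response median ran from -0.0534 (without control 3; -0.0349 without desIgf1 1) to 0.143 with 1 library left out. The mTORC1 sensing median ran from -0.0715 to 0.0146 (-0.00297 without control 3), and was -0.00984 under voom and 0.0286 in the replicate block without number 3. Summed markers, desIgf1 minus control, ran with 1 library left out from -0.347 to 0.0113 CPM for neutrophils (positive without control 3), from -0.0331 (without desIgf1 2) to 0.0669 CPM for erythroid cells and from -593.973 to 1.92 CPM for Treg and Th1 genes (positive without control 2). Scaling by DESeq2 size factors or library totals called 0 genes and shifted the all-gene median by less than 0.1. Depth limits Slc1a1, Nupr1, Chac1, Cth, Cbs, Slc7a7 and Slc6a9, each under a mean of 1 CPM.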
